A study of Rattus norvegicus with 10 samples.

Results

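The genes described here encode the proteins of the mitochondrial ribosome. They were taken by symbol from the count table of a study of left hippocampus in female rats, as every symbol that begins with Mrpl or Mrps and a number and reaches an expected count of 10 or more in at least 5 of the 10 libraries. All 69 such symbols passed, 41 of them Mrpl and 28 Mrps, out of 17168 genes in the table. Every member was also among the 11682 genes that were tested. The lowest count of any member in any library was 21, so no member lay near the minimum.

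The study compared 5 female rats of the TgF-344AD line that ate chow containing ibudilast with 5 untreated female rats of the same line on plain rodent chow. Ibudilast, which inhibits several cyclic nucleotide phosphodiesterases, was given from 5 months of age for 6 months. All 10 rats were 11 months old when the left hippocampus was taken after perfusion with cold buffer. All 10 carried the transgenes, genotype Tg-AD, which are human mutant amyloid precursor protein and presenilin genes under a mouse prion promoter. No wild-type and no male animals were analysed here. Each library came from 1 animal, with its own animal tag in the title.

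Mitochondria carry their own ribosome, built from RNAs encoded by mitochondrial DNA and from proteins encoded in the nucleus and imported. It makes a small set of hydrophobic subunits of the respiratory chain and of ATP synthase, so neurons, with their high demand for ATP, depend on it. The small subunit binds mRNA and decodes it, and the large subunit joins the amino acids and passes the new chain out through an exit tunnel at the inner membrane. By convention Mrpl names proteins of the large subunit and Mrps those of the small subunit. Inherited loss of several of these proteins causes combined respiratory chain disease in humans.

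Total expected counts ran from 7553804 to 10121571 in the ibudilast libraries and from 6960066 to 8204390 in the untreated libraries. Levels are given as CPM, the share of a library's counts scaled to a fixed total with TMM factors, which are not corrected for gene length and are compared here only between libraries. Some libraries held RNA of neighbouring tissue. Ibudilast 3 had a summed level of 3250 CPM over 6 cerebellar markers, against 10.5 to 63.0 CPM in the other 9. Ibudilast 3 and ibudilast 5 had 355 and 410 CPM over 4 meningeal markers, against 19.5 to 62.0 CPM in the other libraries. Col1a1 and Col1a2 made up most of these sums, with 135 and 183 CPM in ibudilast 3 and 136 and 223 CPM in ibudilast 5. Lum was highest in untreated 3 (25.3 CPM), and Dcn in ibudilast 3 (26.7 CPM) lay below untreated 5 (30.1 CPM). Untreated 1 had 2522 CPM over 4 choroid plexus markers. Markers of hippocampal principal cells, of which 9 of 10 listed were in the table, summed to 318 to 1065 CPM in the ibudilast group and 741 to 2120 CPM in the untreated group. Among them Spink8 and Lct reached at most 0.446 and 0.547 CPM in any library. Wfs1 stood at 195 to 407 CPM with ibudilast, against 67.1 to 82.6 CPM in untreated 1, 2, 3 and 5 and 597 CPM in untreated 4. Neocortical markers (10 of 10 in the table) summed to 329 to 794 CPM in the ibudilast group and 224 to 282 CPM in the untreated group. Microglial markers (9 of 9) summed to 261 to 484 CPM with ibudilast and 543 to 838 CPM without, and astrocyte markers (5 of 5) to 1718 to 2943 CPM with ibudilast and 3203 to 4962 CPM without. No listed marker in the table was at 0 in all 10 libraries.

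Most mitochondrial ribosomal protein genes lay lower in the ibudilast hippocampi, and none passed as higher. Of 69 members, 36 fell and 0 rose (edgeR adjusted p under 0.05, corrected over all tested genes), while 18.5% of all tested genes were called lower and 20.0% higher. The 36 are 52.2% of the members. The fitted log2 fold change was below 0 for 62 of the 69, with a median of -0.35, against a median of 0.01 over all tested genes. The falls were moderate in size, and the largest, that of Mrpl54, was 43.8%. In bulk tissue, fewer cells of a type and less RNA per cell cannot be told apart. In that fit 8 of 9 microglial, 3 of 5 astrocyte, 3 of 4 endothelial and 5 of 7 tested hippocampal principal cell markers fell. Of the tested neocortical markers 6 of 9 rose. Of 6 neuronal markers 0 fell and 1 rose, and of 6 oligodendrocyte markers 0 passed in either direction. The part of these cell types in the fall of the members was not tested.

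The summed level of the 69 genes was 2222, 2087, 1952, 2192 and 1953 CPM in ibudilast 1 to 5, against 2862, 2604, 2778, 2422 and 2371 CPM in untreated 1 to 5. The groups did not overlap, with ibudilast 3 and ibudilast 5 lowest and untreated 1 highest. Untreated 4 and untreated 5 lay nearest to the ibudilast group. These last 2 animals have tags of 210 and 213, whereas the other untreated tags are 64, 65 and 93, and the labels do not say what the tag range means. For single genes, all 5 ibudilast libraries lay below all 5 untreated libraries at 22 members, and in the opposite direction at 0 members, against 11.8% and 12.3% of all tested genes. With 1 library left out, between 26 and 39 members fell and 0 rose, and 26 of the 36 passed in all 10 of those fits. Of all genes tested, 13.7% to 19.4% were called lower in those fits. Without ibudilast 3, ibudilast 5 and untreated 1 together, 14 members fell and the median of all members was -0.26 on the log2 scale, while 11.6% of all genes tested in that fit were called lower.

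**Figure D1:**
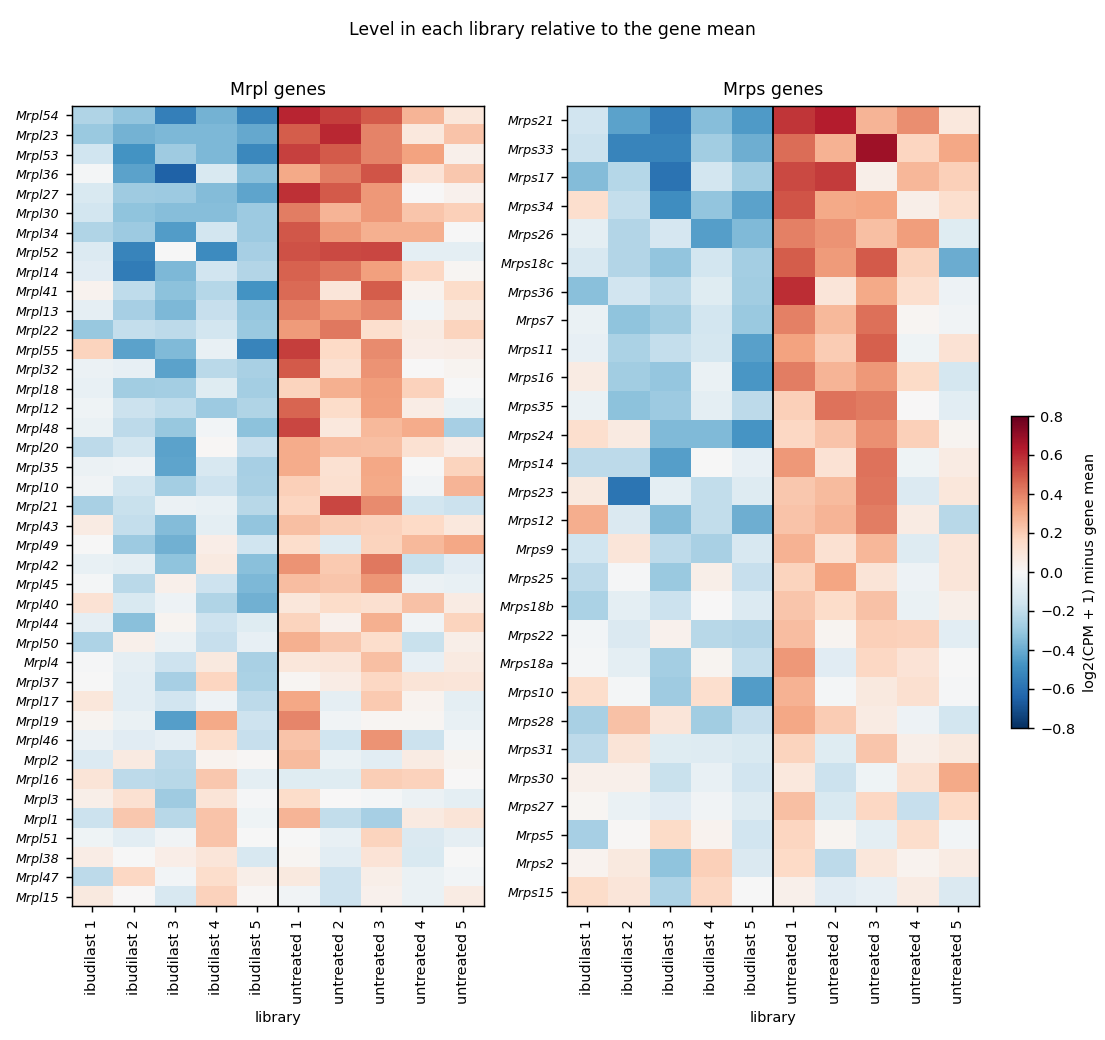
Level of each Mrpl gene (left) and Mrps gene (right) in each library, as log2(CPM + 1) minus the mean of that gene over the 10 libraries, with ibudilast libraries left of the black line and untreated libraries right of it. Genes run from the lowest log2 fold change at the top to the highest at the bottom, and the contrast between the groups fades down each panel. Summed over all members the libraries stood at 1952 to 2222 CPM with ibudilast and 2371 to 2862 CPM without.

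Among large subunit genes, those with the smallest p-values were Mrpl54, Mrpl30, Mrpl23, Mrpl53, Mrpl34 and Mrpl27. Mrpl54, a protein found only in mitochondrial ribosomes, stood at 38.6, 36.6, 31.1, 35.0 and 31.3 CPM in the ibudilast libraries, against 70.4, 67.7, 64.7, 55.5 and 48.8 CPM in the untreated libraries. The groups did not overlap, and the log2 fold change was -0.83 ± 0.12 (SE, n = 5 each; edgeR adjusted p = 0.00104). Mrpl23, whose bacterial counterpart sits at the rim of the exit tunnel, stood at 18.8, 17.7, 17.9, 18.0 and 17.3 CPM with ibudilast and at 33.0, 36.0, 31.1, 24.7 and 27.5 CPM without. Its 5 ibudilast values lay within a narrow band under every untreated value, and it fell by 0.76 ± 0.11 on the log2 scale (edgeR adjusted p = 0.00117).

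Mrpl53, another protein particular to mitochondria, averaged 24.5 ± 2.56 CPM in ibudilast and 41.0 ± 5.44 CPM in untreated libraries (SD, n = 5 each), and fell by 40.3% (edgeR adjusted p = 0.00136). Mrpl27 and Mrpl34 have counterparts in bacteria, and that of Mrpl27 lies close to the peptidyl transferase centre. Mrpl27 averaged 32.5 ± 2.59 CPM with ibudilast and 49.8 ± 9.12 CPM without, and Mrpl34 averaged 19.0 ± 1.47 CPM with ibudilast and 28.7 ± 3.63 CPM without. Mrpl30 averaged 20.4 ± 1.26 CPM in ibudilast and 30.9 ± 1.99 CPM in untreated libraries. It has 9 named pseudogenes in the GRCr8 RefSeq annotation, and its expected counts were whole numbers in all 10 libraries. None of these 6 genes had overlapping groups.

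The flexible stalk of the large subunit, which recruits translation factors, was represented by Mrpl10 and Mrpl12. Mrpl12, which in human cells is also known to bind the mitochondrial RNA polymerase, stood at 53.7, 48.8, 47.6, 44.8 and 46.3 CPM with ibudilast and at 76.3, 60.9, 69.1, 57.3 and 52.9 CPM without. Ibudilast 1 alone reached into the untreated range, above untreated 5, and the gene fell by 23.7% (log2 fold change -0.39 ± 0.11 SE; edgeR adjusted p = 0.0158). Mrpl10, which anchors that stalk, averaged 45.4 ± 3.22 CPM with ibudilast and 58.2 ± 5.27 CPM without (SD, n = 5 each), and the groups did not overlap. The remaining 14 Mrpl genes that fell were Mrpl13, Mrpl14, Mrpl18, Mrpl20, Mrpl22, Mrpl32, Mrpl35, Mrpl36, Mrpl41, Mrpl43, Mrpl48, Mrpl49, Mrpl52 and Mrpl55. Of the 10 fits that leave out 1 library, Mrpl32 passed in 6, Mrpl55 in 4, Mrpl49 in 3 and Mrpl48 in 2. The log2 fold changes of these genes stayed between -0.61 and -0.26 there.

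**Figure D2:**
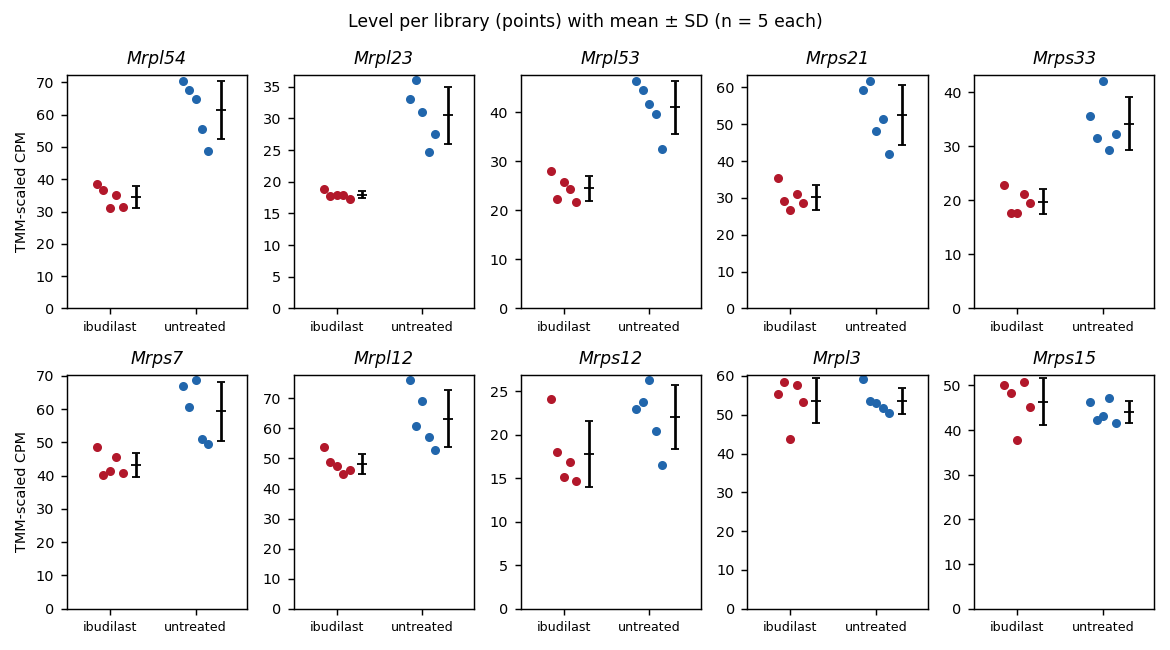
TMM-scaled CPM of 10 members in each library (red, ibudilast; blue, untreated; points in replicate order), with the mean and SD beside them (n = 5 each) and an axis that starts at 0. The ibudilast points of Mrpl54, Mrpl23, Mrpl53, Mrps21, Mrps33 and Mrps7 all lie below the untreated points, those of Mrpl12 and Mrps12 overlap with them, and Mrpl3 averaged 53.6 CPM in both groups.

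Among small subunit genes, Mrps33, Mrps21, Mrps17, Mrps26, Mrps7 and Mrps11 had the smallest p-values. Mrps21, whose bacterial counterpart helps to bind the start of an mRNA, stood at 35.5, 29.2, 26.6, 31.0 and 28.7 CPM with ibudilast, against 59.4, 61.7, 48.0, 51.5 and 42.0 CPM without. The groups did not overlap, and the fall was 42.5% (log2 fold change -0.80 ± 0.12 SE, n = 5 each; edgeR adjusted p = 0.00126). Mrps33, which has no bacterial counterpart, averaged 19.7 ± 2.28 CPM in ibudilast and 34.2 ± 4.94 CPM in untreated libraries, a fall of 42.2% (edgeR adjusted p = 0.00126). Mrps17 averaged 17.0 ± 2.01 CPM with ibudilast and 27.1 ± 4.33 CPM without.

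Mrps7 and Mrps11, which bind the small subunit rRNA in its head and platform, fell by less. Mrps7 averaged 43.3 ± 3.61 CPM with ibudilast and 59.3 ± 8.90 CPM without (SD, n = 5 each; edgeR adjusted p = 0.00979), and Mrps11 averaged 23.6 ± 2.33 CPM with ibudilast and 32.3 ± 4.53 CPM without (edgeR adjusted p = 0.0119). Mrps26 fell to 41.5 ± 4.44 CPM, against 59.0 ± 7.72 CPM in untreated libraries, and there ibudilast 1 lay just above untreated 5. Mrps34, which is mutated in some families with Leigh syndrome, fell by 30.4% (edgeR adjusted p = 0.012). Mrps16 fell by 25.9% (edgeR adjusted p = 0.0298), but its adjusted p was 0.0598 to 0.0738 without ibudilast 2, ibudilast 5, untreated 1, untreated 2 or untreated 3. The other Mrps genes that fell were Mrps14, Mrps24, Mrps35, Mrps36, Mrps18b and Mrps18c. Of the 10 fits that leave out 1 library, Mrps36 passed in 10, Mrps14 in 7, Mrps35 in 6 and Mrps24 in 2. The number of Mrps genes that fell, 14 with all libraries, was 9 without ibudilast 5, untreated 1 or untreated 2, and 8 without untreated 3.

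The 3 Mrps18 genes are paralogues whose products sit in different places. Mrps18c averaged 16.4 ± 0.962 CPM in ibudilast and 23.1 ± 5.38 CPM in untreated libraries (SD, n = 5 each; edgeR adjusted p = 0.0334), and untreated 5, at 14.4 CPM, was below every ibudilast library. Mrps18b averaged 39.7 ± 2.70 CPM with ibudilast and 47.2 ± 3.99 CPM without (edgeR adjusted p = 0.0434). Mrps18a averaged 46.6 ± 3.99 CPM with ibudilast and 54.3 ± 6.52 CPM without and did not pass (edgeR adjusted p = 0.103). Mrps18b passed in 2 and Mrps18c in 3 of the 10 fits with 1 library left out. Without ibudilast 2, ibudilast 3, ibudilast 5, untreated 1, untreated 2 or untreated 3 neither passed.

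Other members stayed near 0. Mrpl3, an rRNA-binding core protein whose loss causes cardiomyopathy in humans, stood at 55.2, 58.3, 43.8, 57.6 and 53.2 CPM in ibudilast libraries, against 59.2, 53.7, 53.0, 51.8 and 50.6 CPM in untreated libraries. Its log2 fold change was 0.00, with a 95% interval from -0.20 to 0.20 (edgeR adjusted p = 0.996). Mrps15 and Mrpl15 had the highest log2 fold changes of their subunits, 0.07 (95% interval -0.13 to 0.28) and 0.06 (-0.12 to 0.25), and neither passed. Mrpl47 averaged 18.5 ± 1.98 CPM with ibudilast and 17.9 ± 1.21 CPM without (SD, n = 5 each), and Mrps2 averaged 61.4 ± 8.25 CPM with ibudilast and 63.6 ± 6.07 CPM without. The intervals of these genes exclude falls of the size of Mrpl54 or Mrps21. Other members lay below 0 without passing. Mrps12, which lies at the decoding centre, averaged 17.8 ± 3.80 CPM with ibudilast and 22.0 ± 3.69 CPM without (edgeR adjusted p = 0.152). It passed without ibudilast 1, its highest ibudilast library at 24.2 CPM, where the log2 fold change was -0.44. Mrpl45, which ties the ribosome to the inner membrane, had a log2 fold change of -0.29 (edgeR adjusted p = 0.0614). Mrpl44, needed for assembly of the large subunit, had -0.27 (0.0596) and Mrps22 had -0.23 (0.0922). Mrpl45 passed without ibudilast 3, untreated 4 or untreated 5, and Mrpl44 without ibudilast 3 or untreated 4.

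The other members that did not pass were Mrpl1, Mrpl2, Mrpl4, Mrpl16, Mrpl17, Mrpl19, Mrpl21, Mrpl37, Mrpl38, Mrpl40, Mrpl42, Mrpl46, Mrpl50 and Mrpl51 in the Mrpl group. In the Mrps group they were Mrps5, Mrps9, Mrps10, Mrps23, Mrps25, Mrps27, Mrps28, Mrps30 and Mrps31. Members that fell and members that did not pass were of like depth, with a median of 254 and 219 expected counts per library.

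**Figure D3:**
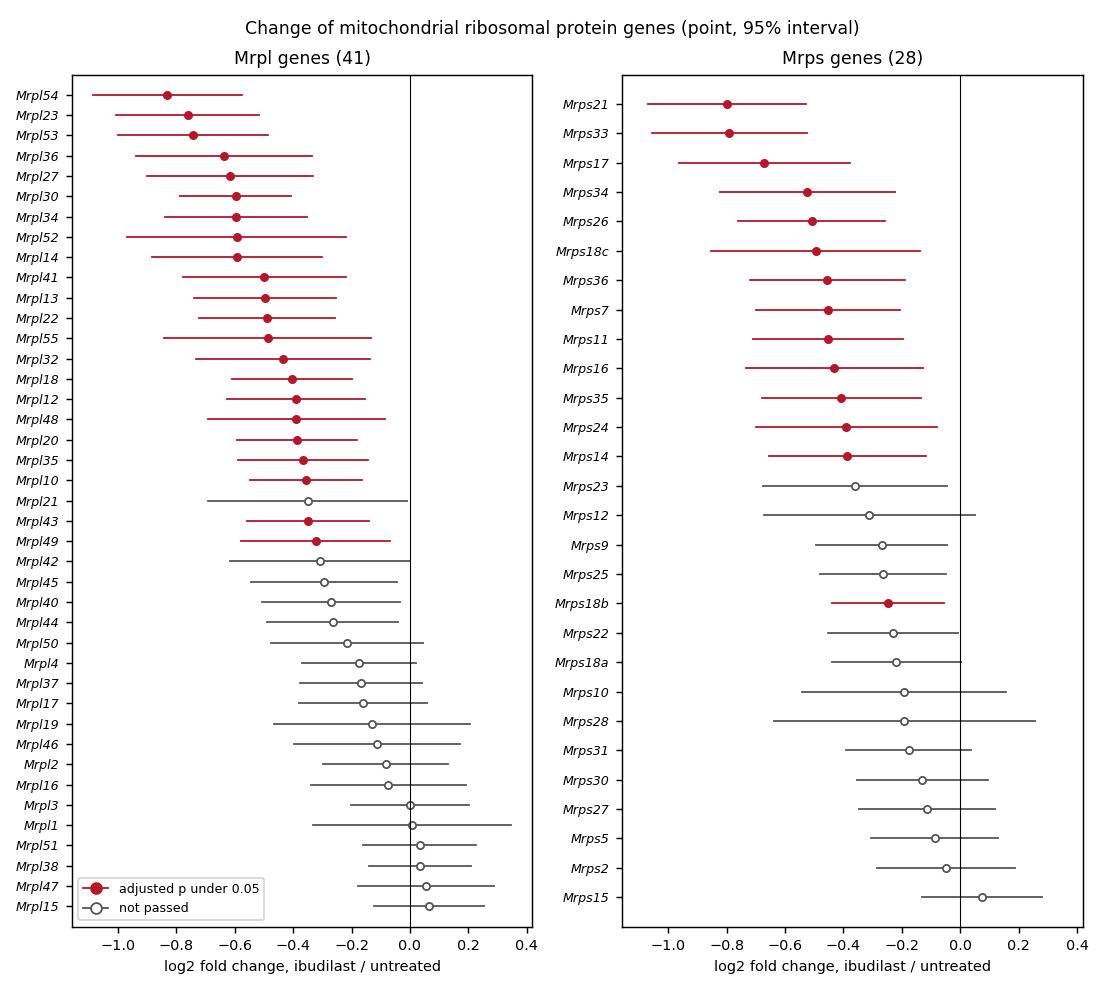
Log2 fold change (ibudilast over untreated, horizontal axis) of the 41 Mrpl genes on the left and the 28 Mrps genes on the right, with 95% intervals from the edgeR fit. Filled red points passed an adjusted p of 0.05 and open grey points did not. The Mrpl values run from -0.83 to 0.06 and the Mrps values from -0.80 to 0.07, and no point that passed lies above 0.

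The large and the small subunit had medians close to each other. Among the 41 Mrpl genes 22 fell and the median log2 fold change was -0.35, and among the 28 Mrps genes 14 fell and the median was -0.34. Summed over genes, the Mrpl members averaged 1248 ± 81.5 CPM in ibudilast and 1561 ± 132 CPM in untreated libraries (SD, n = 5 each), and the Mrps members 834 ± 48.0 CPM with ibudilast and 1046 ± 83.5 CPM without. The symbols do not match the structure in all cases. Mrps30 and Mrps18a belong to the large subunit of the mammalian ribosome. Mrps36, which RefSeq lists as Kgd4, belongs to the 2-oxoglutarate dehydrogenase complex. Mrps30 averaged 36.9 ± 2.77 CPM with ibudilast and 40.5 ± 5.17 CPM without and did not pass, whereas Mrps36 fell by 27.1% (edgeR adjusted p = 0.0135). Placed by structure, 22 of 43 large subunit members and 13 of 25 small subunit members fell, with medians of -0.35 and -0.36.

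A second division is by origin. Of the 40 members that have a bacterial counterpart 23 fell (median log2 fold change -0.39), and of the 28 that are particular to mitochondria 12 fell, with a median of -0.28. Within the large subunit the counts were 15 of 25 and 7 of 18, and within the small subunit 8 of 15 and 5 of 10. No test was made of these differences between lists, which share their libraries.

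Some mitoribosomal proteins are listed under other names. Of 7 such genes, 4 fell and none rose, namely Mrp63, Gadd45gip1, Aurkaip1 and Chchd1. Mrp63, a large subunit protein now called Mrpl57, averaged 26.5 ± 1.38 CPM in ibudilast and 42.6 ± 7.95 CPM in untreated libraries (SD, n = 5 each; edgeR adjusted p = 0.0029). Gadd45gip1, which lies at the tunnel exit, averaged 46.7 ± 4.20 CPM with ibudilast and 67.3 ± 6.16 CPM without (edgeR adjusted p = 0.00242). Dap3, a GTP-binding protein of the small subunit, had a log2 fold change of -0.16, Ptcd3, an RNA-binding protein there, had -0.13, and Ict1, a peptidyl-tRNA hydrolase now called Mrpl58, had -0.34, and none of the 3 passed. Of 3 genes written in lower case in the table, and so outside the symbol rule, mrpl24 fell by 0.30 on the log2 scale (edgeR adjusted p = 0.0382), and mrpl11 and mrpl9 had -0.07 each and did not pass. With all these added, 25 of 49 large subunit and 15 of 29 small subunit genes fell.

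Both the cytosolic ribosome and the complexes that mitochondrial translation serves had lower medians in the same libraries. For the cytosolic ribosome 75 of 76 protein genes fell, the median log2 fold change was -0.68 and the highest value was -0.33. For the respiratory chain and ATP synthase 58 of 73 subunit genes fell and the median was -0.48. The values of the mitochondrial ribosomal genes ran from -0.83 to 0.07, so their lower end lay within the range of the cytosolic genes and their upper end above it. The 3 lists share all libraries, and the differences between them were not tested.

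**Figure D4:**
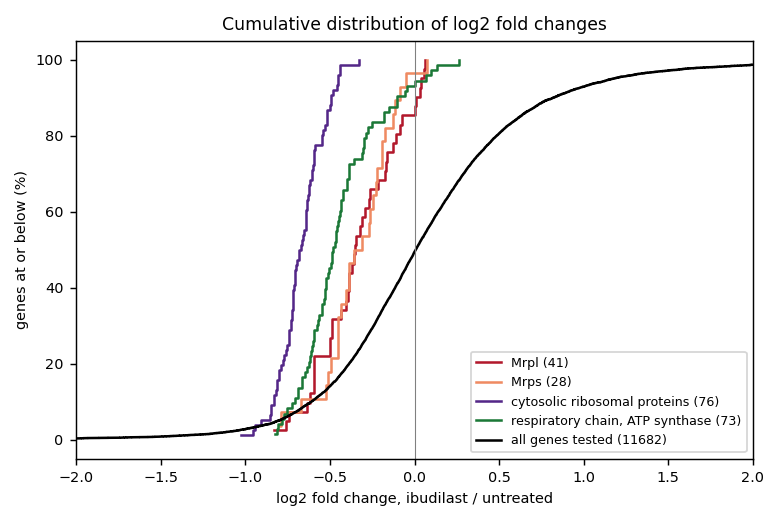
Cumulative share of genes (vertical axis, percent) at or below each log2 fold change of ibudilast over untreated (horizontal axis), for Mrpl genes, Mrps genes, cytosolic ribosomal protein genes, respiratory chain and ATP synthase genes and all tested genes, with the number of genes in brackets. At the median, the Mrpl and Mrps curves (-0.35 and -0.34) lie right of the cytosolic ribosomal and respiratory chain lists (-0.68 and -0.48) and left of all genes (0.01), and towards both ends some of the curves cross. The axis is cut at -2 and 2.

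The members are short genes, and across all genes the change varied with length. Their median genomic span was 6807 bases (GRCr8 RefSeq), against 24421 bases for all tested genes with a span. Among the 1148 tested genes with the shortest spans 40.2% were called lower and the median log2 fold change was -0.31. That bin held 23 members, of which 17 fell (median -0.44). In the next bin of equal size 29.0% of all genes and 9 of 16 members were lower, with medians of -0.19 and -0.32. In the third bin the figures were 22.7% and 5 of 13, with medians of -0.13 and -0.29. Among the 69 members the Spearman correlation of log2 fold change with span was 0.33, and over 11476 genes it was 0.34. Genes are not independent replicates here, since they share the same 10 libraries. The median span was 4942 bases for members that fell and 10594 bases for those that did not pass.

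With the trend removed in each library, 17 members fell, the median member log2 fold change was -0.16 and 16.7% of all genes were called lower. Of the 17, 16 were also among the 36. In that fit Mrps33 had a log2 fold change of -0.64, Mrps21 of -0.63, Mrpl23 of -0.59 and Mrpl54 of -0.51, and all of these passed. Mrpl12, Mrps7, Mrps26, Mrps34 and Mrpl34 did not, with values of -0.15, -0.16, -0.13, -0.10 and -0.10. Mrpl38 and Mrpl51, both large subunit proteins, were higher there, by 0.22 and 0.30 (edgeR adjusted p = 0.0495 and 0.0255), against 0.04 and 0.03 without the correction.

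**Figure D5:**
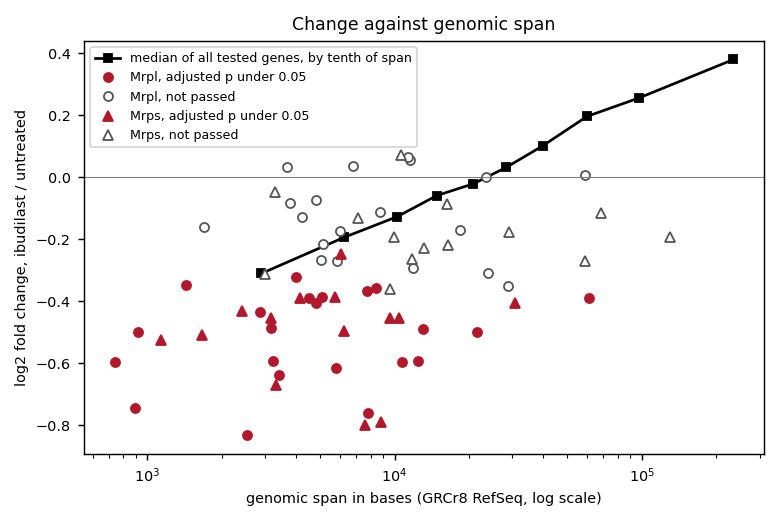
Log2 fold change of ibudilast over untreated (vertical axis) against genomic span in bases (horizontal log axis) for Mrpl genes (circles) and Mrps genes (triangles), filled red where the adjusted p was under 0.05. The black line joins the medians of all tested genes in 10 bins of span, from -0.31 to 0.38. Members that fell had a median span of 4942 bases and lie towards the left.

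The span trend also differed among libraries of 1 group. The slope of centred log2 CPM on log2 span was 0.02, 0.06, 0.04, 0.08 and 0.06 in ibudilast 1 to 5 and -0.09, -0.08, -0.06, -0.03 and -0.002 in untreated 1 to 5. Untreated 4 and untreated 5, with the slopes nearest to the ibudilast group, also had the lowest summed levels of members in their group. In the ibudilast group slope and level did not run together throughout. Ibudilast 1 had the lowest slope and the highest summed level (2222 CPM), but ibudilast 4, with the highest slope, had 2192 CPM. Ibudilast 3, with a slope of 0.04, had the lowest level (1952 CPM). Within animals of tags under 100 (3 ibudilast, 3 untreated) 22 members fell, 6.94% of all genes were called lower and the median member log2 fold change was -0.36. Within those of tags over 200 (2 and 2) 0 members passed, with 13 members at an unadjusted p under 0.05, and the median was -0.19, but that fit called 1.07% of all genes lower. The difference between the tag ranges was not tested. With the tag range as a block over all 10 libraries, 36 members fell and 18.1% of all genes were called lower. With a score of the neocortical markers as a covariate 15 members fell and the median was -0.38, and with a score of the hippocampal principal cell markers 9 fell and the median was -0.40, while all genes called lower were 7.79% and 2.71% of those tested. The neocortical marker sums did not overlap between the groups (329 to 794 CPM with ibudilast, 224 to 282 CPM without). The hippocampal sums overlapped (318 to 1065 CPM with ibudilast, 741 to 2120 CPM without) and averaged 596 CPM with ibudilast and 1305 CPM without. The scores are means of scaled log2 levels of the listed genes, not these sums. Where the markers go with the group, the 2 fits with marker scores cannot separate tissue content from treatment. The part of RNA composition, span and animal tags in the fall of the members was not tested beyond the fits given here.

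Promoter sequence was read for the members that have an entry. RefSeq windows (GRCr8) from 250 bases before to 50 bases after the start were matched for 55 of the 69 members, using the outermost start where several are listed. In many windows the annotated span of the member itself reached into the 200 bases before that start. Among them were Mrps33, Mrps17, Mrpl36, Mrpl52, Mrpl22 and Mrpl20. The start used there was not the outer end of the annotated gene, and such windows stayed in the motif shares and neighbour distances below. Shown are the 200 bases before the start for Mrpl23, Mrpl53 and Mrps21, among the genes that fell most, for Mrpl32, which fell and shares its promoter region with Psma2, and for Mrps15, which did not fall. Windows that overlap an annotated gene were not chosen. Capitals mark CCGGAAG (the core bound by ETS factors such as GABP) and the NRF1 motif (GCGC, any 2 bases, GCGC, which reads alike on both strands), on either strand.
Mrpl23: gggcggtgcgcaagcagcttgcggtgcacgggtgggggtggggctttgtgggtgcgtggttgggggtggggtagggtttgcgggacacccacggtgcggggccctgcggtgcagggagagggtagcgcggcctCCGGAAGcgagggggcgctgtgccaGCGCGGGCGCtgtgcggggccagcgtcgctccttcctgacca
Mrpl53: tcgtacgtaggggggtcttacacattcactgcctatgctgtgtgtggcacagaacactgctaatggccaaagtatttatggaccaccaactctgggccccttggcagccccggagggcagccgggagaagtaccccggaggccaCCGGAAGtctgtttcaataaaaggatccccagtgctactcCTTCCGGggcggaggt
Mrpl32: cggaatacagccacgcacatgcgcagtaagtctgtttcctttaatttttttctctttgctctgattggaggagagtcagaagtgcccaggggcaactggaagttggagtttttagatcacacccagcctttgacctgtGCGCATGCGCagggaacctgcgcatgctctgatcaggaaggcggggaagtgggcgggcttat
Mrps21: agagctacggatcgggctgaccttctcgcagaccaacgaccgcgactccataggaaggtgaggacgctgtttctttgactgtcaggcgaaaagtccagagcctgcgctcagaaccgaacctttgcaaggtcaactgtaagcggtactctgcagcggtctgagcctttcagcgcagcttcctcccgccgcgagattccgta
Mrps15: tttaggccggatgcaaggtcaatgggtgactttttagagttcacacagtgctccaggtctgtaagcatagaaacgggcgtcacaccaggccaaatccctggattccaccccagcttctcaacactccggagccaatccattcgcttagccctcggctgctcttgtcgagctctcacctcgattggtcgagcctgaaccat
These are the gene's strand from 5′ to 3′. They lie at chr1:207116730-207116929 (plus strand) for Mrpl23, chr4:117172843-117173042 (plus) for Mrpl53 and chr17:55260451-55260650 (plus) for Mrpl32. Mrps21 lies at chr2:186103352-186103551 (minus) and Mrps15 at chr5:143605941-143606140 (plus).

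NRF1, GABP and YY1 are the factors best known for controlling nuclear genes of mitochondrial proteins. In Mrpl23 the ETS core begins 67 bases and the NRF1 motif 42 bases before the start. Mrpl53 holds 2 ETS cores, on opposite strands, beginning 56 and 16 bases before the start, and Mrpl32 holds the NRF1 motif 62 bases before it. The windows of Mrps21 and Mrps15 hold none of the 3 motifs in these 200 bases. Over the 55 windows CCGGAAG was present in 32.7% of members and 11.2% of all 19005 coding genes with a window. The NRF1 motif was present in 18.2% and 7.96%, and AAGATGGC, the YY1 motif, in 25.5% and 3.92%. A full CREB site, TGACGTCA, through which cAMP acts on transcription, was present in 1.82% of members and 2.23% of all.

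Of 30 windows with at least 1 of the NRF1, ETS and YY1 motifs 16 belonged to genes that fell (53.3%), and of the 25 without any 14 did (56.0%). By motif, 12 of 18 members with the ETS core fell (median log2 fold change -0.44) and 18 of 37 without it (median -0.32). For the YY1 motif 6 of 14 with it and 24 of 41 without it fell, with medians of -0.23 and -0.39. These are descriptions of letters in a window, 9 motifs were searched on both strands, and those described were chosen after the counts were seen. The 14 members with no window were Mrpl13, Mrpl15, Mrpl16, Mrpl19, Mrpl21, Mrpl35, Mrpl38, Mrpl43, Mrps12, Mrps22, Mrps24, Mrps28, Mrps34 and Mrps35.

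Many members start back to back with another gene. Of the 55, 17 (30.9%) have a coding gene on the opposite strand whose start lies within 1000 bases upstream, against 6.94% of all coding genes with a window. Of these neighbours 14 were tested, of which 4 fell (28.6%) and 0 rose, against 18.5% of all tested genes called lower and 20.0% higher. Their median log2 fold change was 0.01. Where the member fell, 2 of 9 tested neighbours fell (22.2%). Mrps11 and Mrpl46 count here as each other's neighbour, and Mrps11 is among the 4. Mrpl32 and Psma2, a proteasome subunit gene 210 bases away, both fell, by 0.44 and 0.54 on the log2 scale. Mrpl49 and Fau, which encodes a ubiquitin-like protein fused to a cytosolic ribosomal protein, 186 bases apart, fell by 0.32 and 0.65. By contrast, Mrps7 fell by 0.45 while Gga3, an adaptor for vesicle sorting 269 bases away, stood at 0.20 (edgeR adjusted p = 0.0622). Mrps18b fell by 0.25 while Ppp1r10, a phosphatase regulator, stood at 0.28 (edgeR adjusted p = 0.0538). Mrps11 and Mrpl46 count as a back-to-back pair of members, 234 bases apart by the starts used. In that pair Mrps11 fell by 0.45 and Mrpl46 had -0.11 (edgeR adjusted p = 0.512). The annotated spans of Mrps11, Mrpl49 and Mrps18b reached upstream of the starts used, so their distances are not those between the annotated gene ends.

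Genes that serve the mitochondrial ribosome without being part of it were set beside the members in 4 lists. Against the 18.5% of all tested genes called lower and 20.0% called higher, each list had fewer calls in each direction, apart from the synthetases, of which 29.4% were higher. Of 11 tested translation factors of 14 listed, 1 fell and 1 rose. Taco1, an activator of translation of a cytochrome oxidase subunit, averaged 4.15 ± 0.435 CPM with ibudilast and 5.59 ± 0.584 CPM without (SD, n = 5 each; edgeR adjusted p = 0.0465). Among fits that leave out 1 library, it passed without ibudilast 5 or untreated 1 and in no other. Gfm2, which splits ribosomes after termination, rose to 32.0 ± 2.74 CPM, against 23.5 ± 2.48 CPM in untreated libraries (edgeR adjusted p = 0.00619). The elongation factor genes Tufm, Tsfm and Gfm1 had log2 fold changes of -0.12, -0.004 and 0.01 and did not pass.

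Of 17 tested mitochondrial aminoacyl-tRNA synthetase and amidotransferase genes of 21 listed, 5 rose and 2 fell. Ears2, for glutamate, averaged 5.65 ± 0.642 CPM in ibudilast and 2.78 ± 0.927 CPM in untreated libraries (SD, n = 5 each; edgeR adjusted p = 0.00972), and Aars2, for alanine, 24.0 ± 2.68 CPM with ibudilast and 16.3 ± 3.36 CPM without (edgeR adjusted p = 0.0113). Fars2, for phenylalanine, fell to 17.4 ± 2.29 CPM, against 22.4 ± 1.04 CPM in untreated libraries (edgeR adjusted p = 0.0232, or 0.0522 without untreated 2). Gatc, part of the amidotransferase for glutamine, fell by 0.36 on the log2 scale (edgeR adjusted p = 0.047) and, among such fits, passed without ibudilast 3 or untreated 5 alone.

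Of 14 tested assembly factors of 23 listed, 1 fell and 1 rose. Mpv17l2, an inner membrane protein needed for assembly of the ribosome, averaged 16.4 ± 2.64 CPM with ibudilast and 31.5 ± 5.35 CPM without (SD, n = 5 each; edgeR adjusted p = 0.00137). The RNA helicase gene Dhx30 averaged 140 ± 3.03 CPM with ibudilast and 120 ± 5.76 CPM without (edgeR adjusted p = 0.0169). Of 9 tested genes of mitochondrial transcription and mRNA stability of 11 listed, Slirp, which protects mitochondrial mRNA, fell by 0.55 ± 0.13 (SE; edgeR adjusted p = 0.00677) on the log2 scale. Mtpap, the mitochondrial poly(A) polymerase, rose by 0.28 ± 0.10 (edgeR adjusted p = 0.0415) and passed only without ibudilast 1, ibudilast 3 or untreated 5 among the fits with 1 library left out. Polrmt and Tfam, the polymerase of mitochondrial DNA transcription and its main activator, had log2 fold changes of 0.12 and -0.13 and did not pass. The 13 protein genes of mitochondrial DNA were not analysed here.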

How the data were processed

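RNA of left hippocampus from 10 female rats was sequenced from strand-specific mRNA libraries, per the labels. The authors deposited expected counts per gene (estimated counts, with bcl2fastq 2.17, Bowtie2 2.1.0, RSEM 1.2.15 and build rn6 named in the submitters' processing notes) and a signal table of TMM-scaled CPM (edgeR named there). No source used here gives the annotation, the strand setting or a filter, so reads of pseudogenes and of overlapping genes cannot be told apart. Of the members, 11 had counts that were not whole.

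Expected counts were rounded and tested with edgeR 4.0.16 in R 4.3.3 (TMM factors, filterByExpr, quasi-likelihood test, Benjamini-Hochberg adjustment over 11682 genes, threshold 0.05). CPM values recomputed this way matched 99.9% of nonzero deposited values within 0.1%. Standard errors are the log2 fold change over the root of its F statistic. The step was tested on simulated data. P-values weigh the difference between the groups against the spread between animals. Alternatives were other scaling factors and filters, DESeq2 1.42.0, limma 3.58.1 (voom, and a trend fit on the deposited CPM), the replicate number as a block, libraries left out, a loess correction for span (GRCr8 RefSeq, 98.2% of tested genes), marker scores as covariates and, added after seeing the data, the animal tag range.

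Members and lists were chosen with earlier results of these data known. Named members are the 6 of smallest p in each symbol group, the 2 highest and 2 lowest in log2 fold change, fixed genes of known role, and in each pathway list the 2 of smallest p in each direction. Other members named with values, the neighbours and the motifs were chosen after their values were seen.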

Additional observations from a re-analysis of the deposited data

Results flagged for a closer look

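Among 96 sets of 5 libraries, made of the genes chosen by rule for naming and the summed levels in each group, 5 had a library far from the other 4 of its group, where chance flags about 1 set in 20. Mrpl30 stood at 22.6 CPM in ibudilast 1, above 19.6 to 20.4 CPM in the other ibudilast libraries and still below every untreated library. Gfm2 stood at 36.8 CPM in ibudilast 4, above 30.3 to 30.9 CPM in the others. Fars2 stood at 13.5 CPM in ibudilast 3, the library with the cerebellar markers, below 17.8 to 19.5 CPM in the others. Ears2 stood at 1.17 CPM in untreated 1, the library with the choroid plexus markers, below 2.82 to 3.45 CPM in the other untreated libraries. Aars2 stood at 22.2 CPM in untreated 4, above 13.9 to 15.8 CPM in the others.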

How the results depend on the processing

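No setting called more than 2 members higher, and every setting kept the median member log2 fold change below 0. Other scaling factors, other filters, DESeq2, limma-voom and limma-trend called between 32 and 42 members lower. In those settings 13.9% to 21.6% of all genes were called lower. With 1 library left out the count of members lower ran from 26 to 39, of Mrpl members from 18 to 23 and of Mrps members from 8 to 16, and the 3 medians from -0.40 to -0.28. Same-numbered animals did not deviate together (correlations from -0.12 to 0.03), which gives no sign of pairing by number but cannot exclude it. With the replicate block 30 members were lower, 29 of them among the 36, and Mrps members were 9, while 14.2% of all genes were called lower.

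Without ibudilast 3, ibudilast 5 and untreated 1 the counts lower were 14 members, 10 Mrpl, 4 Mrps and 1357 of all genes. With the span trend removed they were 17, 10 and 7, with 2 members higher and medians of -0.16, -0.15 and -0.16. With the neocortical score they were 15, 11, 4 and 910, with 1387 of all genes higher, and with the hippocampal score 9, 6, 3 and 316, with 425 higher. Tags under 100 alone gave 22, 12 Mrpl and 815, with 1182 higher. Tags over 200 alone gave 0, 0, 0 and 126, with 414 higher and medians of -0.19, -0.24 and -0.18. The fits on fewer animals have fewer samples, and otherwise the cause was not tested. Over all settings, the 33 named genes that passed kept their call 682 times and lost it 176 times. The 11 that did not pass stayed so 273 times and passed 13 times. There were 0 reversals of sign, counted only where the gene passed in the main fit or in the setting compared. Mrpl3, which passed in neither, went from 0.00 to -0.05 with upper-quartile factors.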

Other observations

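Coactivator genes of mitochondrial biogenesis moved in the direction opposite to the ribosomal members. Of 8 regulators listed, 4 rose and 0 fell, against 20.0% of all tested genes called higher and 18.5% called lower. Ppargc1a, which encodes the coactivator PGC-1alpha, averaged 30.8 ± 9.49 CPM in ibudilast and 12.4 ± 4.11 CPM in untreated libraries (SD, n = 5 each; edgeR adjusted p = 0.00373). Its groups overlapped, with ibudilast 1 (16.3 CPM) below untreated 5 (19.2 CPM). Its relative Ppargc1b rose by 1.61 ± 0.31 on the log2 scale (SE; edgeR adjusted p = 0.00309), and there the groups did not overlap. Ppargc1a and Ppargc1b span 655711 and 102203 bases. Over all tested genes, the bins of span that hold them had median log2 fold changes of 0.38 and 0.26. Adjusted for the score of hippocampal principal cell markers neither Ppargc1a nor Ppargc1b passed, with log2 fold changes of 0.72 and 0.98, and adjusted for the neocortical score Ppargc1a did not (1.11). The marker sums differed between the groups, the hippocampal sums with overlap, and these fits cannot separate tissue content from treatment. Pprc1 and Esrra, a related coactivator and a nuclear receptor partner, rose by 0.40 and 0.27. The genes of the factors whose motifs were searched, Nrf1, Gabpa, Gabpb1 and Yy1, had log2 fold changes of 0.31, -0.21, -0.26 and 0.25, and none passed.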
